A study of Mus musculus with 35 samples.

Results

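The 40 genes described here encode the antioxidant enzymes, metallothioneins and ferritin chains of mouse embryonic fibroblasts (MEFs), with the factor Nfe2l2 and its adaptor Keap1. They were taken by symbol from a table of 19085 genes, and all 40 were found in it. Of these, 38 were measured, among 8390 measured genes in all: a measured gene reached 5 reads in 5 or more cells and 5 CPM over the 35 cells together (CPM scales the reads on genes of a cell or group to a common total, with spike-ins left out). Txnrd2, the mitochondrial thioredoxin reductase, and Sod3, the extracellular superoxide dismutase, were not measured.

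Single cells of 2 kinds were compared, all from C57Bl/6J MEF cultures kept at 3% oxygen in serum-containing medium with β-mercaptoethanol, a reducing agent. Every cell had received 1 Gy of ionising radiation, had been moved to a membrane dish 32 h later, and was stained with PicoGreen, a dye for double-stranded DNA, and cut out by laser at 48 h. In 21 cells the stain showed micronuclei, which are chromatin bodies apart from the nucleus, and in 14 cells it showed none; no unirradiated cell is part of the comparison. The libraries were made with Smart-seq2 from polyadenylated RNA, which gives reads along the whole transcript and carries no molecular identifiers. The labels do not say which culture or embryo a cell came from. A group is therefore 1 sample, and its values are given as a description without tests. Cells are numbered within their group for naming only.

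Reads on genes numbered 57514 to 1794113 per cell with micronuclei (median 281800) and 56766 to 2023111 per cell without (median 736715). Fibroblast markers summed to 2894 to 17480 CPM in cells with micronuclei and to 5632 to 18122 CPM in cells without, and 11 of the 12 listed markers were measured. Macrophage markers had a median sum of 0 CPM in both groups, with a highest sum of 16760 CPM among cells with micronuclei (cell 10) and of 64.1 CPM among cells without. Endothelial markers stayed at or under 10.8 CPM in cells with micronuclei and at or under 33.4 CPM in cells without.

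Cells remove superoxide with superoxide dismutases and the resulting peroxide with catalase, glutathione peroxidases and peroxiredoxins. The last 2 families are recharged by glutathione and by thioredoxin, whose reductases draw on NADPH. Metallothioneins bind zinc and copper through cysteines, and ferritin, a shell of heavy and light chains, stores iron that would otherwise feed radical chemistry. Nfe2l2 (NRF2) turns on many of these genes through a DNA motif called the antioxidant response element (ARE), and Keap1 holds NRF2 for degradation until electrophiles or oxidants modify it; metallothionein genes answer to the zinc sensor Mtf1 through metal response elements (MRE).

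Promoter sequence was read for 34 of the 40 genes from RefSeq windows on GRCm38.p6 (43 windows of 250 bases before to 50 bases after a start, both strands searched). Prdx6, Sod3, Hmox1, Gclc, Gsr and Gsta4 had no window, so their promoters were not searched. The ARE core, spelled TGACNNNGC, was found in 8 of the 43 windows (18.6%), against 12.4% of 32851 windows of all genes. The matches are shown because they are the stretches of these promoters that hold this spelling of the core. Other spellings were not searched, so the list is not a full list of possible AREs. Capitals mark the match, and a match in the opposite orientation reads as its reverse complement. The Srxn1 match lies after the start. Each stretch is written 5′ to 3′ on the strand of its gene.
Gclm, chr3:122245413-122245441, plus strand: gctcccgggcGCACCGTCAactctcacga
Mgst1, chr6:138140461-138140489, plus strand: gcggggcttgGCACGGTCAggaggcgggg
Mt2, chr8:94172529-94172557, plus strand: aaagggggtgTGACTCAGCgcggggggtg
Nfe2l2, chr2:75704885-75704913, minus strand: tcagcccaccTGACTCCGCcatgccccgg
Prdx1, chr4:116685456-116685484, plus strand: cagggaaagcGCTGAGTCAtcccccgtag
Sod1, chr16:90220696-90220724, plus strand: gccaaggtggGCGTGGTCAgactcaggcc
Srxn1, chr2:152105542-152105570, plus strand: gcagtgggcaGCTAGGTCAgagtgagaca
Txnrd1, chr10:82859104-82859132, plus strand: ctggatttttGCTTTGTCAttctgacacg
The MRE, spelled TGCACNC or TGCGCNC, was found in 13 of the 43 windows (30.2%), against 25.7% of all windows. Mt2 held 4 matches, a number reached by 0.517% of all windows, of which 3 lie before the start and 1 after it. Mt1 held 3 matches, of which 1 lies before the start and 2 after it. The stretches that span them are shown for the metallothionein pair, whose levels are followed cell by cell further on, with MRE matches in capitals. A match is a description of letters and not of a bound site.
Mt2, chr8:94172385-94172638, plus strand: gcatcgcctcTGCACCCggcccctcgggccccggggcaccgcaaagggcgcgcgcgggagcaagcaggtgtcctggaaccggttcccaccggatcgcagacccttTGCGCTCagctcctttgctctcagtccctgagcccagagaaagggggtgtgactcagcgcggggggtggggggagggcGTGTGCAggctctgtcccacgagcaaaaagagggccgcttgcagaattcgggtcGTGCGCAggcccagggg
Mt1, chr8:94179056-94179118, plus strand: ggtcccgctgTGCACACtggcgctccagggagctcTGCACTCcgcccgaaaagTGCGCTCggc

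Together the 40 genes took 1.34% to 3.42% of the reads of a cell with micronuclei (median 2.52%) and 1.26% to 3.58% of the reads of a cell without (median 2.12%). A cell with micronuclei had at least 5 reads of 19 to 37 of the genes (median 31), and a cell without had at least 5 reads of 20 to 36 (median 30.5). The ranges of the groups overlapped almost entirely in both measures. At least 5 reads were counted in all 35 cells for 9 genes: Gpx1, Gpx4, Prdx1, Txn1, Glrx3, Sod1, Mt1, Fth1 and Ftl1.

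**Figure D1:**
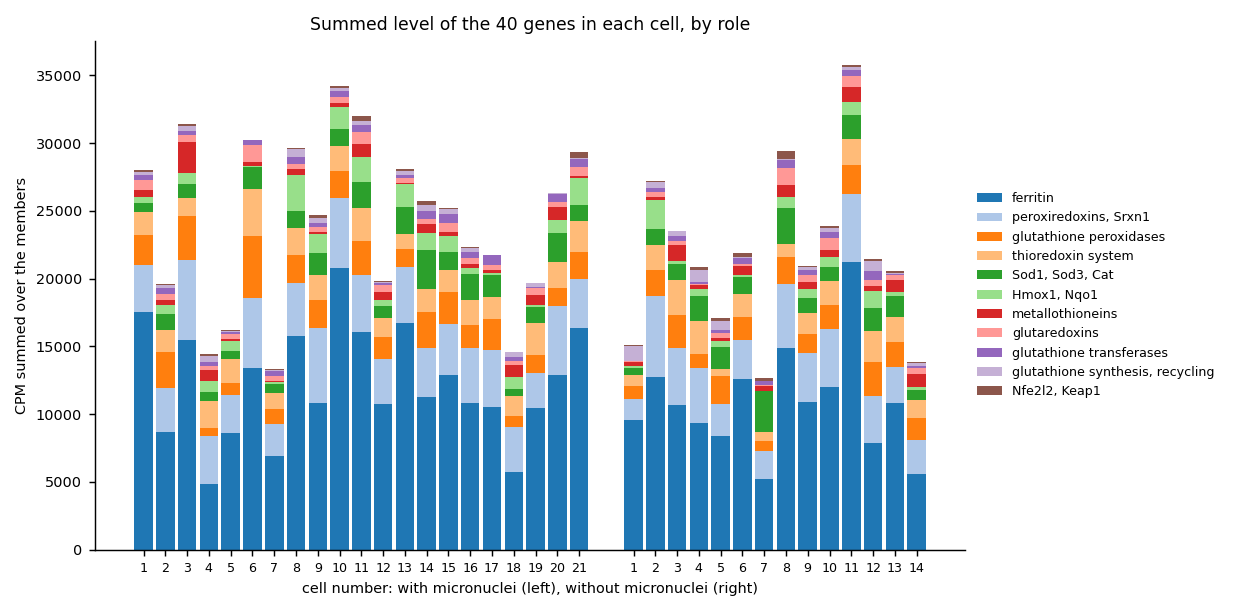
Stacked bars give the summed CPM of the 40 genes in each cell, coloured by role, for the 21 cells with micronuclei (left) and the 14 without (right). Ferritin made up the largest block in every cell, and the totals of the groups overlapped, 13352 to 34209 CPM in cells with micronuclei and 12641 to 35778 CPM in cells without.

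Because full-length reads count more on a longer transcript, levels of different genes were compared only after division by exon length. Per kilobase of all annotated exons and over all cells, the order ran from Ftl1, the ferritin light chain, at 6962 CPM per kb, to Fth1, the heavy chain, at 785, Txn1, cytosolic thioredoxin, at 724, Gpx1, the cytosolic glutathione peroxidase, at 556, and Prdx1, a peroxiredoxin, at 479. Per kilobase of the principal transcript, a length chosen after seeing the data, Ftl1 stayed first at 9638 CPM per kb, but Sod1, the copper and zinc superoxide dismutase, came next at 2411, ahead of Fth1 at 1822. With either length Txn1 lay close to a neighbour, Fth1 in the first order and Gpx1 at 748 CPM per kb in the second.

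Between the groups, the difference of a gene is given as the log2 ratio of CPM of the summed reads, 1 CPM added, with over without micronuclei, and a gene was past 2-fold at a log2 ratio of 1 or more in size. Of the 38 measured genes, 21 were higher (55.3%, beside 56% of all measured genes) and 17 lower, and 9 were past 2-fold, which is 23.7% beside 37.7% of the 8390 measured genes. Gpx3, Txnip, Mgst1, Hmox1, Nqo1 and Keap1 were past 2-fold higher (15.8%, beside 22.9% of all measured genes), and Glrx, Gstm1 and Mt2 were past 2-fold lower (7.89%, beside 14.7%). Gpx3, Txnip and Mgst1 had 5 reads or more in 4 cells without micronuclei, and Keap1 in 3, short of the 5 cells required. They thus passed the filter only through the cells with micronuclei, the group where they were higher. Of the 9, 8 (88.9%) kept their sign with equal weight for every cell and without each cell in turn, beside 82.3% of the 3161 measured genes past 2-fold; Glrx did not. As a share of the measured genes this was 8 of 38, beside 31% of all 8390. The median log2 ratio was 0.16 over the 38 genes and 0.15 over all measured genes. With equal weight for every cell the medians were 0.02 and 0.05, and 5 of the 38 were past 2-fold, beside 26.2% of all measured genes (4 higher beside 15.7%, and 1 lower beside 10.5%).

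Genes of low level were past 2-fold more often than genes of high level, among the 38 and among all measured genes. At 100 CPM or more over all cells, 2 of 25 of the genes (8%) were past 2-fold, beside 15.9% of 1857 genes of that level. Under 100 CPM, 7 of 13 of the genes (53.8%) were past 2-fold, beside 43.9% of 6533 genes. No gene of the 40, and 0 of the 8390 measured genes, had groups that did not overlap from cell to cell.

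**Figure D2:**
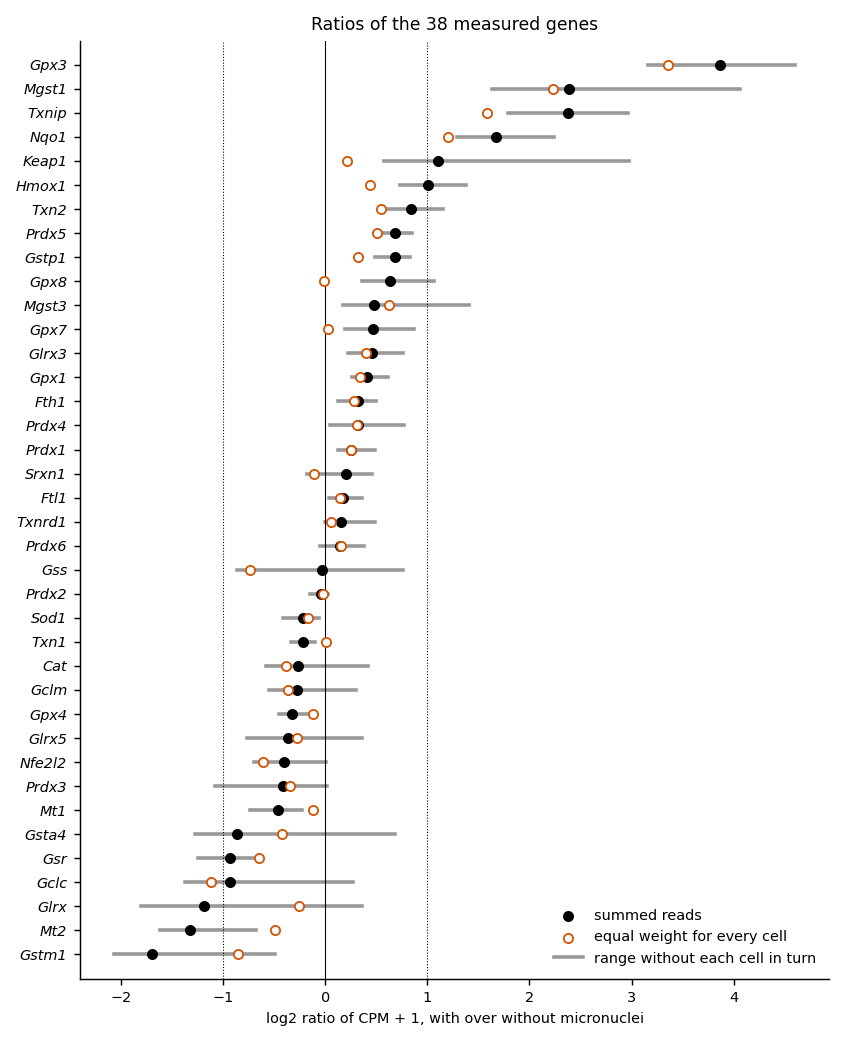
Each row is a measured gene, and the x axis is the log2 ratio of CPM + 1, with over without micronuclei. Filled points use summed reads, open points give every cell equal weight, bars span the ratios without each cell in turn, and dotted lines mark 2-fold; Gpx3, at 3.87, lies farthest right and Gstm1, at -1.69, farthest left.

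Among the 5 glutathione peroxidases, 4 were higher and 1 lower, and 1 was past 2-fold; with scran size factors Gpx8 was at -0.01. Gpx3, the secreted glutathione peroxidase (chr11:54902453-54910377, plus strand, GENCODE annotation of GRCm38), had 0 to 444 CPM in cells with micronuclei (median 44.5) and 0 to 43.4 CPM in cells without (median 0). It was high in some cells of the first kind: 11 of the 21 were above every cell without micronuclei, while 7 of the 21 and 9 of the 14 had no read, so the groups overlapped at the low end. Summed reads gave 122 CPM (95% Poisson interval 115 to 128, counting error only) with micronuclei and 7.41 CPM (5.92 to 9.15) without, a log2 ratio of 3.87, and equal weight gave 3.36. Cell 13 with micronuclei carried 45.9% of all Gpx3 reads; the ratio was 3.16 without it. Leaving out cell 5 of the other group gave 4.60. At least 5 reads were found in 14 of 21 cells with micronuclei (66.7%, Clopper-Pearson interval 43.0% to 85.4%) and in 4 of 14 without (28.6%, 8.39% to 58.1%). With every cell thinned to 119337 reads, which left out 4 cells with micronuclei and 1 without, the counts were 11 of 17 and 0 of 13.

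The other glutathione peroxidases had smaller ratios. Gpx1 had 183 to 3273 CPM in cells with micronuclei (median 907) and 185 to 1414 CPM in cells without (median 735), with a log2 ratio of 0.41. Gpx4, which reduces lipid peroxides in membranes, had 137 to 1070 CPM in cells with micronuclei (median 463) and 157 to 1338 CPM in cells without (median 444), with a log2 ratio of -0.33. Both were present in every cell, and the groups overlapped over most of their range. Gpx7 and Gpx8, which reside in the endoplasmic reticulum, had log2 ratios of 0.46 and 0.63 on summed reads, but 0.03 and -0.01 with equal weight; Gpx8 was at 1.07 without cell 8 of the cells without micronuclei.

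Of the 6 peroxiredoxins and Srxn1, the sulfiredoxin that reactivates over-oxidised peroxiredoxins, 5 were higher and 2 lower, and none was past 2-fold; with scran size factors Srxn1 was at -0.05. Prdx1, a cytosolic peroxiredoxin, had 461 to 4016 CPM in cells with micronuclei (median 1603) and 55.5 to 3347 CPM in cells without (median 1420), with a log2 ratio of 0.25. The largest ratio belonged to Prdx5, found in mitochondria and peroxisomes, at 0.68, with 411 CPM in cells with micronuclei and 255 CPM in cells without; it was above every cell without micronuclei in 5 of the 21. Its exons overlap those of Trmt112 on the opposite strand, so its count is uncertain. The lowest was that of Prdx3, the mitochondrial peroxiredoxin, at -0.41, and it ran from -1.08 without cell 13 with micronuclei to 0.01 without cell 4 of the other group. Prdx2, Prdx4, Prdx6 and Srxn1 lay between -0.04 and 0.32, and without each cell in turn Prdx6 was as low as -0.05 and Srxn1 as low as -0.18.

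In the thioredoxin system, 3 of 4 measured genes were higher and 1 lower, and 1 was past 2-fold; the lower one, Txn1, was at 0.06 with scran size factors. Txnip, the arrestin-like protein that binds thioredoxin and restrains glucose uptake (chr3:96557957-96561883, plus strand), had 0 to 771 CPM in cells with micronuclei (median 10.8) and 0 to 196 CPM in cells without (median 0). It was found with at least 5 reads in 10 of 21 cells with micronuclei and in 4 of 14 without, and 2 cells of the first kind were above all of the second. Summed reads gave 60.3 CPM with micronuclei and 10.8 CPM without, a log2 ratio of 2.38, with 1.59 at equal weight. Cell 11 with micronuclei carried 34.4% of its reads and the ratio without that cell was 1.79. Its exons overlap the antisense gene Gm15441.

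Txn2, mitochondrial thioredoxin, had 141 to 1689 CPM in cells with micronuclei (median 545) and 0 to 901 CPM in cells without (median 390). It had at least 5 reads in every cell with micronuclei and in 11 of 14 without, and its log2 ratio was 0.84, under 2-fold. It was 1.15, past 2-fold, without cell 4 of the cells without micronuclei, 0.56 without cell 7 of them, and 1.98 as a difference of mean log2 values. Txn1 had 304 to 1530 CPM in cells with micronuclei (median 805) and 484 to 1241 CPM in cells without (median 854), with a log2 ratio of -0.22. Txnrd1, the cytosolic thioredoxin reductase, had 7.48 to 808 CPM in cells with micronuclei (median 278) and 16.7 to 823 CPM in cells without (median 191), with a log2 ratio of 0.15. For Txn1 and Txnrd1 neither group stood above the other. Txnrd2 had 40 reads over the cells with micronuclei, 85% of them in cell 8, and 0 reads without, for which the Poisson interval reaches 0.318 CPM.

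Of the glutaredoxins, which use glutathione to reduce mixed disulfides, 1 was higher and 2 lower. Glrx, the cytosolic form (chr13:75839868-75850154, plus strand), had 0 to 386 CPM in cells with micronuclei (median 26.7) and 0 to 506 CPM in cells without (median 0). Its log2 ratio of -1.19 rested on a single cell: cell 8 without micronuclei carried 50.1% of all Glrx reads, and the ratio was 0.36 without it. The ratio was also short of 2-fold without cell 13 (-0.94) or cell 14 (-0.99) with micronuclei, and it was -1.80 without cell 7. The mean of log2 values per cell was higher with micronuclei, by 1.28. Glrx3 and Glrx5, which act in iron-sulfur cluster handling, had log2 ratios of 0.46 and -0.37. Cell 8 without micronuclei, which turned Glrx, also held 27.3% of the Glrx5 reads, and Glrx5 was at 0.37 without it.

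Both measured enzymes of superoxide and peroxide removal outside these families were slightly lower. Sod1 had 425 to 2632 CPM in cells with micronuclei (median 1152) and 473 to 2669 CPM in cells without (median 1162), with a log2 ratio of -0.22. Cat, the peroxisomal catalase, had 0 to 427 CPM in cells with micronuclei (median 97.6) and 0 to 583 CPM in cells without (median 109), with a log2 ratio of -0.27 that was 0.42 without cell 7 of the cells without micronuclei. The groups overlapped over nearly the whole range in both genes. Sod3 had 43 reads with micronuclei, 88.6% of its reads lying in cell 17, and 1 read without.

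All 4 genes of glutathione synthesis and recycling were lower on summed reads and with scran factors, and none was past 2-fold on summed reads. TMM scaling moves all ratios down together here, so it could not turn their sign. As differences of mean log2 values, Gclm was at 0.45 and Gss at 0.07, and Gclc was at -0.93 and Gsr at -1.05. Gclc, the catalytic subunit of the rate-limiting enzyme, had 23.5 CPM in cells with micronuclei and 46.0 CPM in cells without, a log2 ratio of -0.94 that was 0.27 without cell 4 of the cells without micronuclei. Gclm, its modifier subunit, had 0 to 518 CPM in cells with micronuclei (median 113) and 0 to 657 CPM in cells without (median 76.4), with a log2 ratio of -0.27 that was 0.30 without the same cell. Gsr, glutathione reductase, had 0 to 105 CPM in cells with micronuclei (median 0) and 0 to 164 CPM in cells without (median 25.5), with a log2 ratio of -0.93 that stayed between -1.25 and -0.66 without each cell in turn. Gsr was thus the member of this group whose sign held through every such omission. Gss, glutathione synthetase, had 0 to 351 CPM in cells with micronuclei (median 29.5) and 0 to 906 CPM in cells without (median 40.4), with a log2 ratio of -0.04 on summed reads and -0.73 with equal weight. It was -0.86 without cell 14 with micronuclei, 0.76 without cell 1 of the cells without, and 0.73 without the 6 cells of low quality described further on. Without the same 6 cells Gclm was at 0.21. Gclm and Gss overlap other genes on the opposite strand, and Gclm also holds a pseudogene, Gm6061, on its own strand, whose 244 bases have near-identical copies elsewhere, among them Ppia with 22952 reads, so both counts are uncertain.

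The glutathione transferases attach glutathione to electrophiles, and 3 of 5 were higher and 2 lower. Mgst1, the microsomal transferase with peroxidase activity (chr6:138140316-138156755, plus strand), had 0 to 272 CPM in cells with micronuclei (median 41.9) and 0 to 118 CPM in cells without (median 0). At least 5 reads were found in 13 of 21 cells with micronuclei and in 4 of 14 without, or in 9 of 17 and 1 of 13 after thinning, and 6 cells with micronuclei and 9 without had no read. Summed reads gave 73.6 CPM (68.7 to 78.8) with micronuclei and 13.3 CPM (11.2 to 15.5) without, a log2 ratio of 2.39, with 2.23 at equal weight. The ratio was 1.64 without cell 14 with micronuclei and 4.06 without cell 5 of the cells without. Gstm1, a cytosolic mu-class enzyme (chr3:108012255-108017973, minus strand), had 0 to 146 CPM in cells with micronuclei (median 3.74) and 0 to 484 CPM in cells without (median 1.79). Its log2 ratio was -1.69 on summed reads, but cell 8 without micronuclei carried 48.4% of its reads and the ratio without that cell was -0.49, under 2-fold. Gstp1 had a log2 ratio of 0.68. Mgst3 had 0.48, and 1.40 without cell 7 of the cells without micronuclei. Gsta4, which conjugates lipid aldehydes, had -0.86, and 0.68 without cell 11 of that group, which held 47.6% of its reads. Near-identical copies of Gstm1 and of Gstp1 had 6 reads each in the table.

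Both haem and quinone enzymes were past 2-fold higher. Nqo1, the NADPH quinone reductase widely used as a readout of NRF2 (chr8:107388225-107403206, minus strand), had 8.99 to 1131 CPM in cells with micronuclei (median 139) and 0 to 560 CPM in cells without (median 84.0). No cell with micronuclei was without Nqo1 reads, 4 of the 14 cells without micronuclei had none, and 5 of the 21 were above all of the 14. Summed reads gave 516 CPM (502 to 529) with micronuclei and 161 CPM (154 to 169) without, a log2 ratio of 1.67, with 1.21 at equal weight and 1.29 to 2.24 without each cell in turn; cell 13 with micronuclei carried 26.8% of its reads. At least 5 reads were found in 21 of 21 cells with micronuclei (100%, interval 83.9% to 100%) and in 10 of 14 without (71.4%, 41.9% to 91.6%), or in 16 of 17 and 9 of 13 after thinning.

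Hmox1, haem oxygenase 1, which releases iron and biliverdin from haem (chr8:75093621-75100589, plus strand), had 0 to 2011 CPM in cells with micronuclei (median 538) and 0 to 2079 CPM in cells without (median 261). The highest cells of the groups were alike, and the difference lay in the middle of the distributions. Summed reads gave 658 CPM with micronuclei and 327 CPM without, a log2 ratio of 1.01, at the edge of the 2-fold mark. It was 0.44 at equal weight and 0.73 to 1.38 without each cell in turn, and 12 of the 35 omissions took it under 2-fold.

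**Figure D3:**
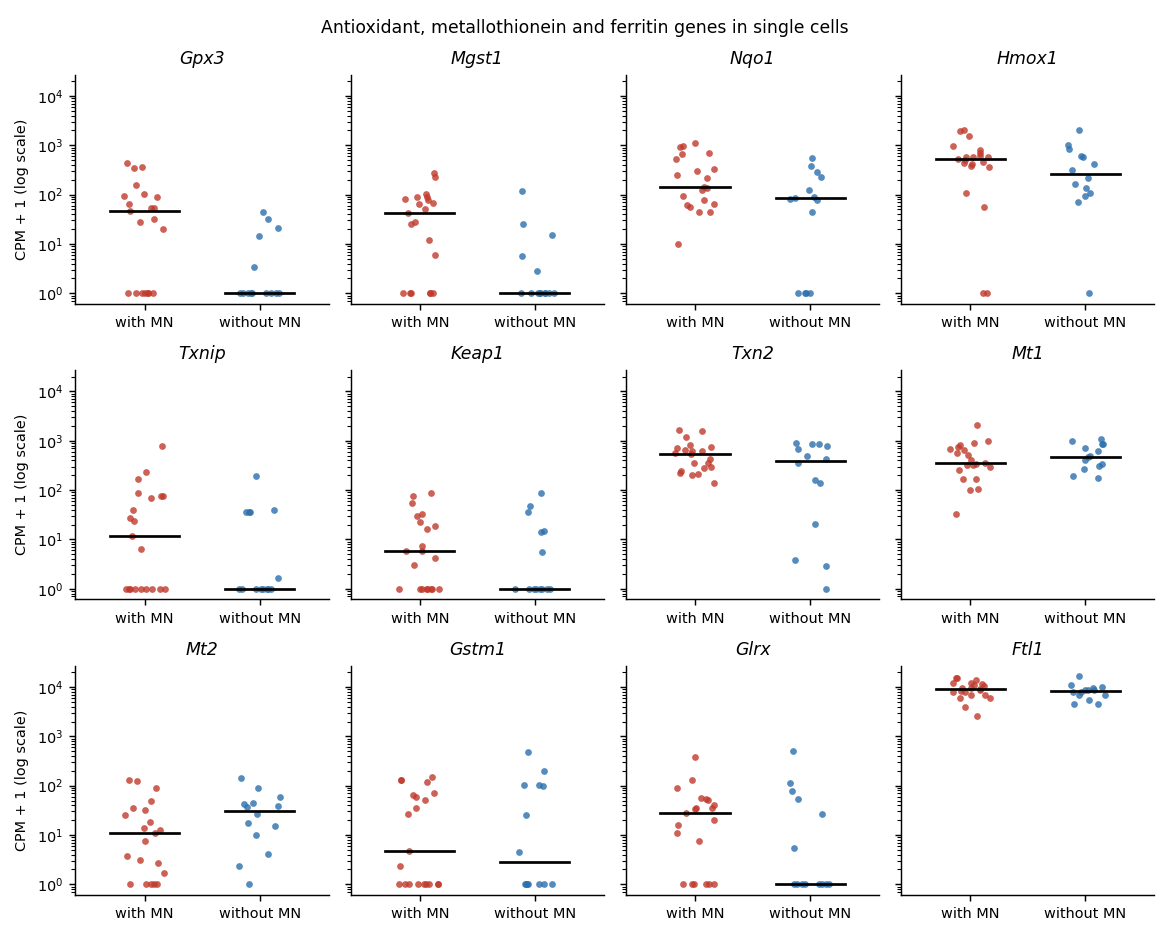
Each point is a cell, the y axis is CPM + 1 on a log scale, and the line is the group median, with cells with micronuclei left and cells without right. Gpx3 and Mgst1 have medians of 44.5 and 41.9 CPM with micronuclei and of 0 without, while the points of Ftl1 and Mt1 overlap throughout.

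The metallothionein genes Mt1 (chr8:94179082-94180327) and Mt2 (chr8:94172664-94173568) lie 5514 bp apart on the plus strand. Mt1 had 31.8 to 2121 CPM in cells with micronuclei (median 351) and 178 to 1096 CPM in cells without (median 477), and it had reads in all 35 cells. The highest and the lowest cell were both micronucleated, so the 14 lay inside the range of the 21. Its log2 ratio was -0.47 on summed reads and -0.12 at equal weight. Mt2 had 0 to 130 CPM in cells with micronuclei (median 9.96) and 0 to 143 CPM in cells without (median 30.1). At least 5 reads of Mt2 were found in 9 of 21 cells with micronuclei (42.9%, 21.8% to 66.0%) and in 10 of 14 without (71.4%, 41.9% to 91.6%); after thinning these were 3 of 17 with micronuclei and 5 of 13 without. Summed reads gave 14.98 CPM (12.8 to 17.4) with micronuclei and 39.01 CPM (35.5 to 42.8) without, a log2 ratio of -1.32, with -0.49 at equal weight. Cell 8 without micronuclei carried 32.8% of the Mt2 reads and the ratio was -0.68 without it. Per kilobase of exons and over all cells, Mt1 stood at 376 CPM per kb and Mt2 at 46.4.

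Both ferritin chains were slightly higher and in every cell. Ftl1 (chr7:45457944-45459884, minus strand) had 2570 to 15558 CPM in cells with micronuclei (median 9224) and 4509 to 16712 CPM in cells without (median 8239), with a log2 ratio of 0.17. Fth1 (chr19:9980598-9985098, plus strand) had 812 to 8866 CPM in cells with micronuclei (median 2376) and 735 to 4524 CPM in cells without (median 2426), with a log2 ratio of 0.33. Without each cell in turn the ratios stayed between 0.03 and 0.36 for Ftl1 and between 0.13 and 0.50 for Fth1. Ftl1 has 7 near-identical copies outside its own locus (at least 97% identity over 100 bases or more), of which 6 were in the table with 6359 reads in all, so part of its reads may have been counted there.

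Of the regulators, Nfe2l2 had 0 to 424 CPM in cells with micronuclei (median 69.7) and 34.2 to 576 CPM in cells without (median 136). No Nfe2l2 read was counted in 3 of the 21 cells with micronuclei, and all 14 cells without had some. Its log2 ratio was -0.41 on summed reads and -0.61 at equal weight, and 0.01 without cell 8 of the cells without micronuclei. Nfe2l2 had the largest rank correlation with depth of all measured members, a Spearman rho of 0.68 with the log10 reads of a cell over 35 cells, and cells without micronuclei were the deeper ones by median; the part of depth in the difference was not tested. Keap1 had 0 to 85.3 CPM in cells with micronuclei (median 4.84) and 0 to 86.9 CPM in cells without (median 0), and 5 of 21 and 3 of 14 cells had 5 reads or more. Its log2 ratio of 1.11 was 0.22 at equal weight, -0.00 after thinning, 0.57 without cell 13 and 0.60 without cell 14 with micronuclei, and 2.97 without cell 11 of the cells without.

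Macrophage markers were limited to few cells, and the named ratios were much the same without them: leaving out the 5 cells with micronuclei that had at least 5 reads of such a marker other than Cd68 and Cd14, a choice made after seeing the data, gave 3.86 for Gpx3, 2.42 for Mgst1, 2.49 for Txnip, 1.83 for Nqo1 and 0.94 for Hmox1, the last under 2-fold. Leaving out 6 cells with under 4000 detected genes or over 9% mitochondrial reads gave 4.61 for Gpx3, 4.13 for Mgst1, 2.29 for Txnip, 1.88 for Nqo1 and 0.76 for Hmox1. Over 12 other settings, Gpx3, Mgst1, Txnip and Nqo1 were past 2-fold in all 12 and Hmox1 in 4. Among the 12, the stricter filter and no filter change only which genes are counted. Under both the ratio was that of the summed reads by construction, with Hmox1 at 1.01.

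The genes also differed in how much they varied from cell to cell. The coefficient of variation (CV, standard deviation over mean of CPM over 35 cells) falls with level, so each was set beside the median CV of measured genes with a mean CPM within 1.5-fold. Of the 38 genes, 20 were above and 18 below their like. The least variable for its level was Txn1, with a CV of 0.343 beside 0.517. Next came Gstp1 (0.756 of its like), Gsr and Mt2 (0.773 each) and Keap1 (0.786). The most variable for its level was Txnip, with a CV of 2.49 beside 1.38. Next came Hmox1 with 0.965 beside 0.564, Gss with 1.91 beside 1.19, Nqo1 with 1.19 beside 0.779 and Glrx with 2.10 beside 1.42. Ftl1 had a CV of 0.366, but only 2 genes had a like mean. After thinning, the order at both ends differed: Ftl1, at 0.607 of its like, lay below Txn1 at 0.637, and Gss, at a CV of 2.13 beside 1.24, was level with Txnip, at 2.32 beside 1.35. Gsr and Gstp1 were then at 0.795 and 0.829 of their like, but Mt2 was at 0.974, and Keap1 no longer passed the filter.

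**Figure D4:**
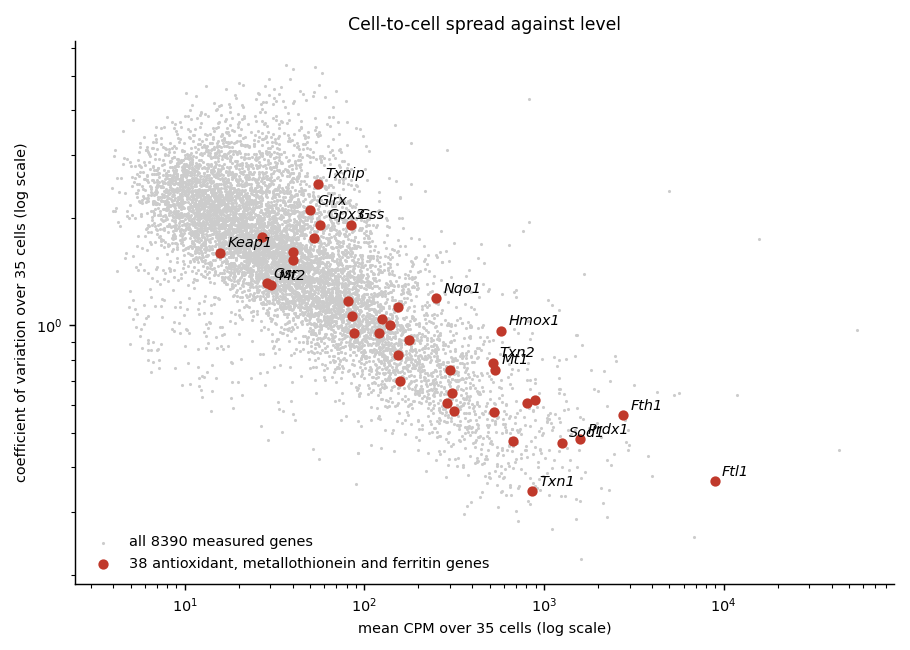
Each point is a measured gene, with its mean CPM over 35 cells on the x axis and its CV on the y axis, both on log scales, and the 38 genes in red. Txn1 (CV 0.343) lies at the lower edge of the cloud at its level, and Txnip (2.49), Hmox1 (0.965) and Nqo1 (1.19) lie above its middle.

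Co-variation was described for 10 pairs across the 35 cells, as correlations of log2(CPM + 1); the cells share a preparation and differ in depth, so no p-value is given. Mt1 and Mt2 had the highest Pearson r of the 10, 0.57 (Spearman rho 0.59). It was 0.54 over the 21 cells with micronuclei, 0.62 over the 14 without, 0.57 without the 2 cells farthest from the median of Mt1 and 0.68 after thinning. Srxn1 and Txnrd1 had r of 0.53 (rho 0.47), with 0.47 in cells with micronuclei and 0.64 in cells without. Fth1 and Ftl1 had r of 0.38 (rho 0.44), with 0.20 in cells with micronuclei and 0.72 in cells without, or 0.38 and 0.45 without the 2 cells of each group farthest from its median of Fth1. Hmox1 and Nqo1 had r of 0.33 (rho 0.34), which was -0.01 over the cells without micronuclei after omission of the 2 cells with outlying Hmox1. Gpx1 and Gpx4 had r of 0.40 over all cells, but 0.82 in cells with micronuclei and -0.35 in cells without; the last was 0.00 without the 2 cells farthest from the median of Gpx1, and the difference between groups was not tested.

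The other pairs were weaker. Prdx1 and Txnrd1 had r of 0.27, Gclc and Gclm, the subunits of one enzyme, had 0.22, Nfe2l2 and Keap1 had -0.07, Txn1 and Txnrd1 had -0.07, and Txnip and Txn1 had -0.09. Over all 703 pairs of the 38 genes the median rho was 0.09, 474 were above 0, 9 were above 0.5 and 0 were below -0.5. These counts were not made for pairs of all measured genes, so they have no background here. Srxn1 and Keap1 had the highest rho, 0.69. Gpx4 with Fth1, Gsr with Gstm1 and Prdx2 with Gstm1 also lay above Mt1 with Mt2 (rho 0.59).

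**Figure D5:**
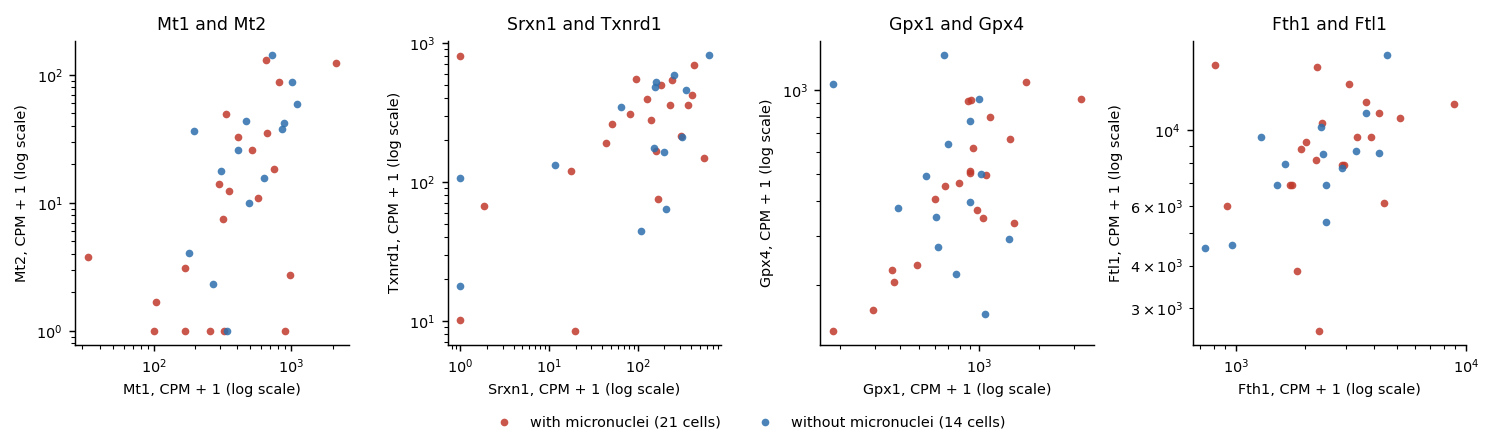
Each panel plots a pair of genes in the 35 cells as CPM + 1 on log axes, cells with micronuclei in red and cells without in blue. Mt1 and Mt2 follow each other in both groups (r 0.54 with micronuclei, 0.62 without), whereas Gpx1 and Gpx4 do so in cells with micronuclei (0.82) and not in cells without (-0.35).

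Other genes of the same pathways were counted from 86 listed symbols, of which 76 were in the table and 62 measured. Of these, 39 were higher and 23 lower, and 18 were past 2-fold higher and 5 lower, together 37.1% beside the 37.7% of all measured genes. All of these numbers are on summed reads. None of 8 partners of NRF2, such as Cul3, Mafg and Bach1, was past 2-fold, beside 37.7% of all measured genes. Of 9 genes for cystine uptake and NADPH, 2 were past 2-fold higher and 1 lower, beside 22.9% higher and 14.7% lower among all measured genes. Tkt, the transketolase of the pentose phosphate pathway, had 216 CPM in cells with micronuclei and 71.8 CPM in cells without, with a log2 ratio of 1.58 that stayed past 2-fold without each cell in turn, at 1.16 to 2.05. Idh2, which makes mitochondrial NADPH, had 1.05, and 0.01 without cell 13 with micronuclei. Idh1, its cytosolic counterpart, had -1.02, and 0.13 without cell 5 of the cells without micronuclei.

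Of 8 further glutathione enzymes, 4 were past 2-fold higher, beside 22.9% of all measured genes. Gstz1 had 37.0 CPM in cells with micronuclei and 5.34 CPM in cells without, a log2 ratio of 2.58 that was 1.41 without cell 14 with micronuclei. Glrx2, the mitochondrial glutaredoxin, had 121 CPM in cells with micronuclei and 36.9 CPM in cells without, but its medians per cell were 49.05 CPM with and 61.3 CPM without. Its log2 ratio of 1.69 was 0.44 at equal weight and 1.05 without cell 11 with micronuclei. Gstm5 and Glo1, which detoxifies methylglyoxal, had log2 ratios of 1.33 and 1.09, and as low as 0.97 and 0.82 without each cell in turn. At equal weight they were at 0.83 and 0.53.

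Of 21 other redox genes, 6 were past 2-fold higher and 1 lower, beside 22.9% higher and 14.7% lower among all measured genes. Blvra, biliverdin reductase, which acts on the product of Hmox1, had 45.6 CPM in cells with micronuclei and 6.20 CPM in cells without, a log2 ratio of 2.69, or 1.43 at equal weight; 13 of 21 and 3 of 14 cells had 5 reads or more. It was 2.45 to 3.93 without each cell in turn, the highest without cell 3 of the cells without micronuclei. Abcc1, an exporter of glutathione conjugates, had 63.0 CPM in cells with micronuclei and 197 CPM in cells without, a log2 ratio of -1.63, or -0.88 at equal weight. Ephx1, an epoxide hydrolase, had 2.20, and stayed past 2-fold without each cell in turn.

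Ccs, the copper chaperone of Sod1, had 102 CPM in cells with micronuclei and 43.1 CPM in cells without, a log2 ratio of 1.23 that was 0.77 without cell 11 with micronuclei. Nqo2, a quinone reductase, and Sesn2, a stress-induced sestrin, had 1.54 and 1.94, and 0.99 and 0.65 without cell 13 with micronuclei. At equal weight Nqo2 was at 0.32 and Sesn2 at 1.33. Msrb2, a mitochondrial methionine sulfoxide reductase, had 38.4 CPM in cells with micronuclei and 0 reads in cells without, for which the Poisson interval reaches 0.318 CPM. It had 5 reads or more in 6 of the 21 and was thus measured through these cells alone, of which cells 14 and 21 held 46.9% and 43.2% of its reads.

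Of 8 genes of iron handling, 2 were past 2-fold higher and 2 lower, and of 8 genes of zinc handling 4 were higher and 1 lower. Beside these small counts, 22.9% of all measured genes were past 2-fold higher and 14.7% lower. Of measured genes under 100 CPM, 43.9% were past 2-fold in either direction, but both lists also hold genes above that level. All 4 calls of the iron list, and 3 of the 5 of the zinc list, fell under 2-fold without 1 cell. Fech, which inserts iron to make haem, had 113 CPM in cells with micronuclei and 46.4 CPM in cells without, a log2 ratio of 1.27 that was 0.83 without cell 7 with micronuclei and 2.44 without cell 4 of the cells without. Ireb2, which represses ferritin translation when iron is low, had 1.22, with 0.56 at equal weight and 0.95 without cell 7 of the cells without micronuclei. Fbxl5, which targets Ireb2 for degradation, had -1.75, and -0.21 without cell 5 of the cells without micronuclei, which held 55.6% of its reads. Pcbp2, an iron chaperone for ferritin, had -1.18, with -0.83 at equal weight and -0.62 without cell 8 of the cells without micronuclei.

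Among the zinc genes, Slc39a7 and Slc39a14 of the ZIP family of transporters had log2 ratios of 1.53 and 2.48 and stayed past 2-fold without each cell in turn. Slc39a10 of the same family had 1.55, and 0.42 without cell 11 with micronuclei. Mtf1, the activator of the metallothionein genes, had 17.4 CPM in cells with micronuclei and 3.36 CPM in cells without, a log2 ratio of 2.08 that was 0.46 without cell 7 with micronuclei, which held 62.5% of its reads. Slc30a7, which carries zinc into the Golgi, had -1.48, and -0.11 without cell 5 of the cells without micronuclei. Its medians were 34.5 CPM with micronuclei and 15.99 CPM without. Of the pathway genes past 2-fold higher, some passed the filter only through cells with micronuclei, as Msrb2 did. These were Gstz1, Blvra, Nqo2, Sesn2, Fech, Slc39a7, Slc39a10 and Slc39a14. Mtf1 had 5 reads or more in 4 cells of each group, so it passed only through both groups together.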

How the data were processed

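Single-cell libraries of 35 MEFs were analysed from the deposited table of whole-number read counts, not normalized. Per the submitters' processing notes, the authors aligned reads with STAR to GRCm38.p5, counted them with Rsubread and kept cells with scater at ERCC shares of at most 10%, at least 2000 genes and at least 40000 counts; versions, and whether strand was used, were not given in the sources used here. Exons that overlap another gene on the opposite strand therefore make a count uncertain: Prdx2, Prdx5, Txnrd2, Txnip, Gclm, Gss, Mt2, Ftl1 and Keap1. All 35 cells were kept, 0 of 595 pairs of cells were identical, and 0 columns were unused. Each library is described as a cell cut out by laser. A doublet caller was not run, and whether a library held RNA of further cells was not tested. Cell 10 with micronuclei had both fibroblast markers (9451 CPM) and macrophage markers (16760 CPM).

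Reads were summed per group (11084425 with micronuclei and 11612303 without; spike-ins left out) and given as CPM. Intervals are 95% exact Poisson or Clopper-Pearson and cover counting error only. No test between the groups was made, since each group is 1 sample. The members and lists were chosen with earlier results of these data known. Values are given for genes past 2-fold that kept their sign with equal weight and without each cell, for 16 genes fixed by name, for the 5 most and 5 least variable for their level, for genes past 2-fold whose sign changed, and for pathway genes of the first kind. Alternatives were mean log2 CPM, equal weights, scran factors, TMM, another amount added (0.1 or 5 CPM), a stricter filter (20 CPM, 10 cells) or none, thinning to 119337 reads (30 cells), other read minimums (1 or 10), omission of 6 cells of low quality or of each cell, and totals without mitochondrial genes; omission of 5 cells with macrophage markers, the principal transcript length and the split at 100 CPM were chosen after seeing the data. The computation of the ratios was checked on simulated counts with known folds. Positions and exon lengths are from GENCODE M21, promoters from RefSeq on GRCm38.p6. Tools were matplotlib 3.10.9, scipy 1.17.1, pandas 2.3.3 and numpy 2.4.6 in Python 3.11.15, and in R 4.3.3 edgeR 4.0.16 (TMM factors only), and scran 1.30.0, with BLAST 2.17.0+ for near-identical copies.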

Additional observations from a re-analysis of the deposited data

How the results depend on the processing

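The 9 genes past 2-fold were 5 with equal weight for every cell and 4 with scran size factors; under the other settings the number lay between 7 and 11. Those past 2-fold lower, 3 on summed reads, were 1 with equal weight (Gclc at -1.12, not one of the 3), 0 with scran factors, 5 with TMM scaling, 6 without the 6 cells of under 4000 genes or over 9% mitochondrial reads, and 5 without the 5 cells with macrophage markers. Without each cell in turn, 7 to 11 genes were past 2-fold, 4 to 6 higher and 1 to 6 lower; the last number was 1 without cell 8 without micronuclei, 6 without cell 7, and 5 without cells 4, 5 or 11 of that group or cell 8 with micronuclei. The median log2 ratio was 0.02 to 0.36 over these omissions. Glrx ran from -1.80 to 0.36 over these omissions, the last without cell 8 without micronuclei. As differences of mean log2 values, Glrx turned to 1.28 and Gstm1 to 0.0036; the cause was not tested. With at least 1 read in place of 5, 14 genes in place of 9 were found in all cells. Of 1784 single-gene values under all alternatives, 1305 lay within the counting interval of the ratio, 476 lay outside it, and in 3 a gene past 2-fold turned sign. That interval does not cover the spread between cells. The values under the stricter filter and under no filter are among the 1305 by construction, since a filter leaves the ratio as it was. TMM scaling shifted the median of all measured genes to 0.01, against 0.15 on summed reads. No paired analysis was possible because the cell numbers were given in accession order and pair no cells across groups. Depth limits genes of few reads: Mt2, Gsr, Gsta4 and Keap1 had fewer than 5 reads in many cells, and a cell at 0 may hold RNA that was not sampled.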
